A study of Mus musculus with 4 samples.

Results

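The gene expression of LPS-cultured B cells was compared between ΔIRIS and ΔleftPAL mice, 2 of the 4 libraries of the series, across all genes, with the Cγ genes left in the counts but not described. The other 2 libraries, from resting cells of the same genotypes, served only as a reference. Both strains are homozygous mutants on the 129 background and both lack the left-side IRIS, the inverted repeats that lie between hs3a and hs1,2, which are enhancers of the 3' regulatory region (3'RR) of the immunoglobulin heavy-chain locus. ΔleftPAL mice lack the whole segment from hs3a through these repeats to hs1,2, the left side of the palindrome that surrounds hs1,2. ΔIRIS mice carry the same deletion with hs1,2 and an inverted copy of hs3a put back, so that they keep all the 3'RR enhancers without the palindrome. The repeats on the right side of hs1,2 are not part of the deletion. The neomycin cassette used for targeting had been removed by cre in both. Splenic B cells were purified by depletion of CD43+ cells, pooled over mice, and cultured for 48 h with 5 µg per ml LPS, and their rRNA-depleted total RNA was sequenced with strand information. The comparison asks how B cells that differ in the left 3'RR enhancers differ elsewhere in the transcriptome.

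LPS, a component of the outer membrane of Gram-negative bacteria, is sensed by B cells through TLR4 with MD-2 and through the related RP105 complex. It drives resting B cells into growth, DNA synthesis and division. Part of the cells then switch on Prdm1 (Blimp-1) and Xbp1, change Ighm processing from membrane to secreted μ chains and become antibody-secreting plasmablasts, while others undergo class switch recombination. Division and secretion both demand new membrane, which needs cholesterol and fatty acids.

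Only 1 library represents each genotype and condition. No test between genotypes was therefore possible, no difference below has a replicate check, and the differences describe these 2 libraries. The named genes received 27777790 counts in the ΔleftPAL LPS library and 29776108 in the ΔIRIS LPS library, and 3 counts correspond to 0.111 and 0.102 CPM, the counts put on a common library size. The library sizes were adjusted by TMM factors of 0.970 and 0.984. Every ratio is the log2 ratio of ΔIRIS over ΔleftPAL after adding 0.5 CPM, so that a negative value means less RNA in ΔIRIS cells. The intervals are exact 95% Clopper-Pearson intervals of the reads without that addition, and they cover counting error only, since reads copied by PCR are not independent molecules. They are omitted for low counts. The B cell genes Cd79a (239 and 250.2 CPM in ΔleftPAL and ΔIRIS), Ms4a1 (748 and 916 CPM) and Pax5 (99.5 and 95.1 CPM) were abundant in both libraries. By contrast, C1qa of macrophages, Clec9a of dendritic cells, Cd3e of T cells and S100a8 of neutrophils had 0 reads in both. Other markers on the same lists had reads, among them Apoe (719 and 451), Emr1 (197 and 117), Sirpa (160 and 125) and Lck (487 and 503). In bulk RNA, fewer cells of a kind and less RNA per cell cannot be told apart.

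Of 41342 named genes, 11286 averaged 50 counts or more in the 4 libraries and were measured. The 2 LPS libraries were close to each other. The median size of the log2 ratio was 0.146 and the 95th percentile was 0.670, against 0.210 and 0.811 between the 2 resting libraries. At least 2-fold more RNA was present in ΔIRIS for 64 genes (0.567% of those measured) and at least 2-fold less for 159 genes (1.41%). With kallisto TPM the split was 39 and 178 genes, and with 5 CPM added in place of 0.5 it was 13 and 70. At rest the balance was the other way, with 207 genes higher in ΔIRIS (1.83%) and 115 lower (1.02%). Of the 64 genes, 9 were also at least 2-fold higher at rest and 2 were at least 2-fold lower. Of the 159, 18 were also lower at rest and 17 were higher. Protein-coding genes made up 37 of the genes higher in ΔIRIS and 98 of those lower, of which 30 and 72 were also at least 2-fold apart in the kallisto estimated counts. Immunoglobulin genes made up 3 (the Cγ3 gene and 2 light-chain variable segments) and 29, and pseudogenes 8 and 23. The 11286 genes measured held 10268 protein-coding genes, 169 immunoglobulin genes and 375 pseudogenes. In both directions, immunoglobulin genes and pseudogenes thus had a larger share of the genes at least 2-fold apart than of all genes measured. Protein-coding genes had a smaller share.

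The 98 protein-coding genes lower in ΔIRIS were compared with their own resting levels. Their median ratio at rest was -0.02, and 56 of them lay within 1.5-fold at rest, as did 90% of all 10268 protein-coding genes measured. Of the 98, 27 were at least 2-fold higher in the LPS than in the resting library of ΔleftPAL cells and 8 were so in ΔIRIS cells, whereas 36 and 67 were at least 2-fold lower. Over all protein-coding genes, 19.1% were at least 2-fold higher with LPS in ΔleftPAL and 21.1% in ΔIRIS cells, and 15.6% and 17.3% were at least 2-fold lower. Among the 37 genes higher in ΔIRIS, 29 were within 1.5-fold at rest, and 27 were at least 2-fold lower with LPS than at rest in ΔleftPAL cells against 15 in ΔIRIS cells. Genes higher in ΔIRIS were thus mostly genes whose level was lower in the cultured than in the resting library, and less so in ΔIRIS. These counts use the LPS ratios that chose the genes and are given as a description.

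**Figure D1:**
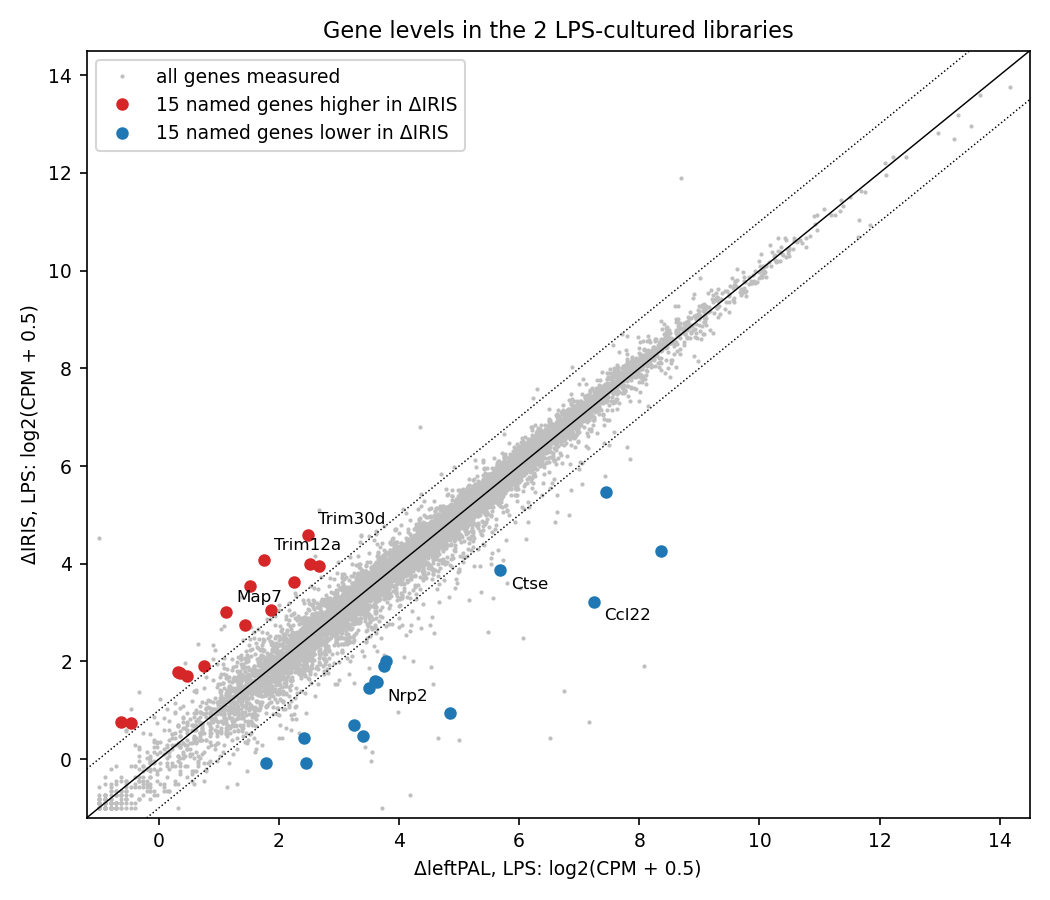
Each point is 1 of the 11286 genes, placed by its log2(CPM + 0.5) in the ΔleftPAL LPS library (horizontal) and the ΔIRIS LPS library (vertical). The solid line marks equality and the dotted lines 2-fold. Red and blue points are the 15 protein-coding genes per direction with the largest ratio that were also at least 2-fold apart in the kallisto estimated counts. Among them, Ccl22 and Ctse lie far below the line at high levels in ΔleftPAL.

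Chemokines and their receptors were the list with the lowest median. Of 19 measured members, 10 were at least 1.5-fold lower in ΔIRIS LPS cells (4.5% of all genes measured were) and 1 was at least 1.5-fold higher (1.96% of all genes). The median ratio was -0.59, against 0.026 over all genes, and was -0.28 over members with at least 200 counts on average and -0.22 with 5 CPM added.

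Ccl22 encodes a ligand of CCR4 that attracts T cells and is made by activated B cells and dendritic cells. It had 20 reads in resting and 4085 in LPS-cultured ΔleftPAL cells, against 96 and 259 in ΔIRIS cells. It was thus low in both resting libraries and high in 1 LPS library only. Its ratio was -4.03 with LPS (interval -4.29 to -3.92). Among the inflammatory CC chemokines, Ccl3 had 133 reads in ΔleftPAL LPS and 81 in ΔIRIS LPS cells, Ccl4 had 61 and 22, and Ccl5 had 132 and 60. In the resting libraries these chemokines stood the other way, at 149 and 505 reads for Ccl3, 90 and 307 for Ccl4, and 132 and 385 for Ccl5. Their LPS ratios were -0.74, -1.14 and -1.08, and their resting ratios lay between 1.22 and 1.44. Cxcl16, a membrane-bound chemokine, had 58 and 26 reads with LPS.

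Among the receptors, Ackr3, a scavenger receptor of CXCL12, had 110 reads in ΔleftPAL LPS and 30 in ΔIRIS LPS cells and was lower in ΔIRIS at rest too (365 and 187 reads). Ccr6, the receptor of CCL20, had 423 and 247 reads with LPS (-0.86) and was also lower at rest (-0.76). The abundant homing receptors differed less. Cxcr5, which guides B cells into follicles, stood at 108 CPM in both LPS libraries, Cxcr4 at 45.8 CPM in ΔleftPAL and 42.5 CPM in ΔIRIS, and Ccr7 had 943 and 844 reads. At rest Cxcr4 and Ccr7 were higher in ΔIRIS, by 1.47 and 1.86. The member higher in ΔIRIS was Ackr2, a scavenger receptor of inflammatory chemokines, with 139 and 256 reads (ratio 0.71).

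Some of these genes are also made by other cells of the spleen. The 17 dendritic cell markers, among which Ccl22 is counted, summed to 399 CPM in ΔleftPAL LPS and 243 CPM in ΔIRIS LPS cells. Without Ccl22 the other 16 summed to 247.5 and 234.5 CPM, so that Ccl22 itself made up most of the difference between these sums. Apart from Ccl22, the actin-bundling gene Fscn1 was lower in ΔIRIS (292 and 93 reads, ratio -1.63, against 121 and 402 reads at rest), as was the transcription factor gene Zbtb46 (59 and 23 reads). The integrin Itgax had 20 and 16 reads with LPS and Xcr1 had 11 and 4. Flt3 had 1220 and 1055 reads, and Tcf4, which B cells also express, carried most of the sum beside Ccl22, at 156 and 162 CPM. The 21 macrophage and monocyte markers found summed to 96.4 and 69.7 CPM with LPS, against 1468 and 1922 CPM at rest. Of 19 measured, 4 were at least 1.5-fold lower in ΔIRIS (Lyz2, Spic, Emr1 and Apoe), against 4.5% of all genes. Lyz2 had 35 and 14 reads with LPS, Spic 17 and 4, and Csf1r 8 and 5. Of the 21 markers, 11 had 3 or fewer reads in ΔleftPAL LPS and 12 in ΔIRIS LPS cells. The filter averages all 4 libraries, so markers with few or no LPS reads, such as C1qa, could pass it through the resting libraries. The part of dendritic cells and macrophages in the chemokine difference was not tested.

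The plasma cell list was lower in ΔIRIS. Of 23 measured members, 21 had a ratio below 0, 6 were at least 1.5-fold lower (4.5% of all genes) and 0 were at least 1.5-fold higher (1.96%), with a median of -0.42. Of all genes, 54.9% had a ratio above 0. At rest the median was -0.06 and 10 of 23 were above 0. Prdm1, which encodes the transcriptional repressor that ends the B cell programme, had 111 reads in resting and 2047 in LPS-cultured ΔleftPAL cells, and 210 and 1288 in ΔIRIS cells. It was higher with LPS than at rest in both genotypes and reached the higher level in ΔleftPAL, with a ratio of -0.78 (interval -0.89 to -0.69). Xbp1, the transcription factor of the secretory apparatus, reached 389 CPM in ΔleftPAL and 260 CPM in ΔIRIS cells (-0.58). Igj, the J chain that joins IgM into polymers, reached 501 and 283 CPM (-0.82). Txndc5, a disulfide isomerase, stood at 363 and 226 CPM (-0.68), and Ell2, an elongation factor that favours secretory Ighm processing, at 157 and 102 CPM (-0.62). Ly6k was the member furthest apart, with 614 reads in ΔleftPAL LPS and 205 in ΔIRIS LPS cells (-1.64) and 51 and 54 at rest. Members with smaller differences were Irf4 (-0.22), Pou2af1 (-0.11), Mzb1 (-0.38) and Sdc1, the gene of CD138 (481 and 387 reads, -0.42).

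The transcripts of Ighm followed the same order in their secreted form only. In the kallisto estimated counts, the 4-exon transcript, which ends in the secretory tail, had 268124 counts in ΔleftPAL LPS and 182672 in ΔIRIS LPS cells, a ratio of -0.60. The 6-exon transcript with the membrane exons had 49331 and 55108, a ratio of 0.11. The secreted form therefore made up 84.5% of both forms in ΔleftPAL LPS and 76.8% in ΔIRIS LPS cells, against 23.8% and 24.1% at rest. These shares are estimates from reads that the 2 transcripts partly have in common, and no counting interval is given for them.

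The general machinery of the endoplasmic reticulum had a smaller median difference than the plasma cell list. Of 34 folding, translocation and unfolded protein response genes, 1 was at least 1.5-fold higher in ΔIRIS (1.96% of all genes) and 1 lower (4.5%). The median was -0.13, and 25 of the 34 had a ratio below 0 (54.9% of all genes were above 0). The chaperone genes Hsp90b1 and Hspa5 were at 1223 and 1100 CPM in ΔleftPAL and 1188 and 1108 CPM in ΔIRIS. The gene at least 1.5-fold lower was Ern1, the kinase and nuclease IRE1α that activates Xbp1 by splicing, with 557 and 366 reads (-0.71). Ero1lb was higher in the gene counts (0.66) but not in the estimated counts (0.03).

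Light-chain transcripts were lower in ΔIRIS LPS cells as well. Igkc, the κ constant gene, had 98525 reads in ΔleftPAL LPS and 57662 in ΔIRIS LPS cells (-0.89), and Iglc2 had 9970 and 8435 (-0.36). Of 82 measured κ variable segments, 78 had a ratio below 0 and 22 were at least 2-fold lower, with a median of -0.65 against -0.06 at rest. Of all genes measured, 54.9% had a ratio above 0 and 1.41% were at least 2-fold lower. Of 72 heavy-chain variable segments, 7 were at least 2-fold lower (1.41% of all genes) and the median was -0.14.

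The families of segments were not alike. Of 8 measured Ighv5 segments, 6 were at least 2-fold lower in ΔIRIS (1.41% of all genes), and their summed level was 528 CPM in ΔleftPAL LPS and 188 CPM in ΔIRIS LPS cells, against 73.2 and 64.6 CPM at rest. The Ighv1 family, with 32 measured segments and 0 at least 2-fold apart, summed to 360 and 373 CPM. Among the 64 heavy-chain segments outside Ighv5, 1 was at least 2-fold lower (Ighv11-2), against 1.41% of all genes. In the κ locus the Igkv3 family had the lowest median, -1.94 over 7 segments, and its sum was 246 and 106 CPM. A segment stood the other way. Igkv1-133 had 157 reads in ΔleftPAL LPS and 992 in ΔIRIS LPS cells, a ratio of 2.44 in the gene counts and 0.65 in the estimated counts. Segments of a family share sequence, so their reads may be exchanged among members, and the families were singled out after their values were seen.

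**Figure D2:**
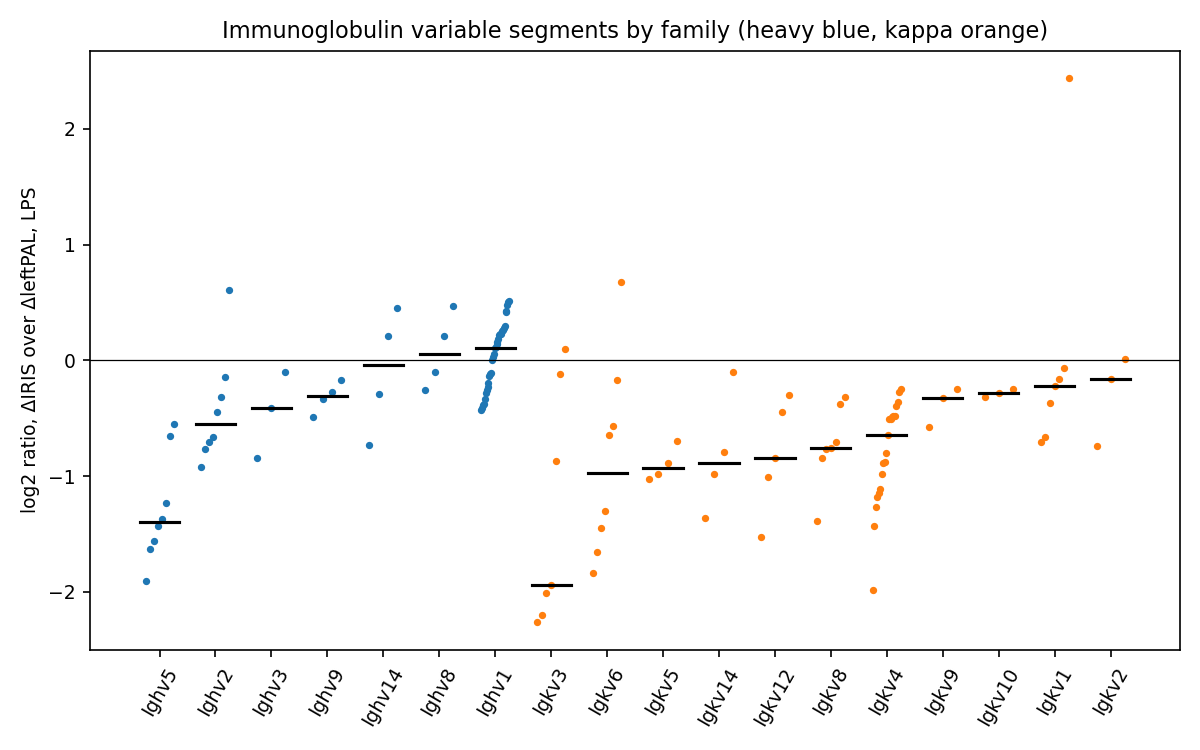
Each point is 1 measured variable segment, placed by its log2 ratio of ΔIRIS over ΔleftPAL in LPS-cultured cells (vertical) within its family (horizontal, families with at least 3 measured segments), and bars are family medians. The Ighv5 and Igkv3 medians are the lowest of their loci, and Ighv1 lies around 0.

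Genes of cholesterol and fatty acid synthesis formed the list with the highest median among those with at least 5 measured members. Of 33 measured members, 32 had a ratio above 0 (54.9% of all genes did), 6 were at least 1.5-fold higher (1.96%) and 0 were at least 1.5-fold lower (4.5%), with a median of 0.45. At rest 14 of the 33 were above 0 and the median was -0.11. No member reached 2-fold.

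Hmgcs1, an early enzyme of sterol synthesis that makes HMG-CoA, had 1094 reads in resting and 5923 in LPS-cultured ΔleftPAL cells, and 1140 and 9736 in ΔIRIS cells. The resting libraries were alike and both LPS libraries were higher, ΔIRIS the more so, with a ratio of 0.59 (interval 0.55 to 0.64). Further down the pathway, Idi1 stood at 72.9 CPM in ΔleftPAL LPS and 111 CPM in ΔIRIS LPS cells (0.60), Sqle at 82.1 and 114 CPM (0.47), and the sterol demethylation enzymes Cyp51 and Msmo1 had ratios of 0.56 and 0.63. Insig1, a sterol-sensing brake on the pathway, was higher too (0.49), as it was at rest (0.66).

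On the fatty acid side, Scd1 and Scd2, which introduce double bonds, were the most abundant members, at 478 and 341 CPM in ΔleftPAL and 695 and 481 CPM in ΔIRIS. The desaturase Fads2 had 21 reads in resting and 398 in LPS-cultured ΔleftPAL cells, and 8 and 739 in ΔIRIS cells (0.75). Acsl3, which activates fatty acids, had 725 and 1337 reads with LPS (0.75). Fasn and Acly, which make palmitate and its acetyl-CoA, differed less (0.18 and 0.25). Mvk alone had a ratio below 0 (586 and 540 reads, -0.23).

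Several genes of this pathway are controlled by SREBP factors through sterol regulatory elements. The letters TCACNCCAC, a form of that element, were searched on both strands in the 250 bases before the start of 23 members with a RefSeq promoter (GRCm38.p6), and 1 held a match, Hmgcs1, against 1.22% of all 27025 genes with a promoter. A match is a description of the letters, not a measured site. The same search for a form of the NF-κB site in 13 chemokine and receptor genes with a promoter found 0 matches, against 1.65% of all genes, which says only that those letters are not in this window. The Hmgcs1 sequence (chr13:119690101-119690350, plus strand, GRCm38.p6) is shown because the gene carries the clearest difference among the abundant sterol genes, with the match in capitals.
Hmgcs1: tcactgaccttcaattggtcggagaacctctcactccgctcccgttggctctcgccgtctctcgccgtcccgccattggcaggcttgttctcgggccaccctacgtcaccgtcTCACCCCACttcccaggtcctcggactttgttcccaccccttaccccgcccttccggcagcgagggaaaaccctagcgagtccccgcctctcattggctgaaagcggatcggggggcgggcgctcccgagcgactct

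**Figure D3:**
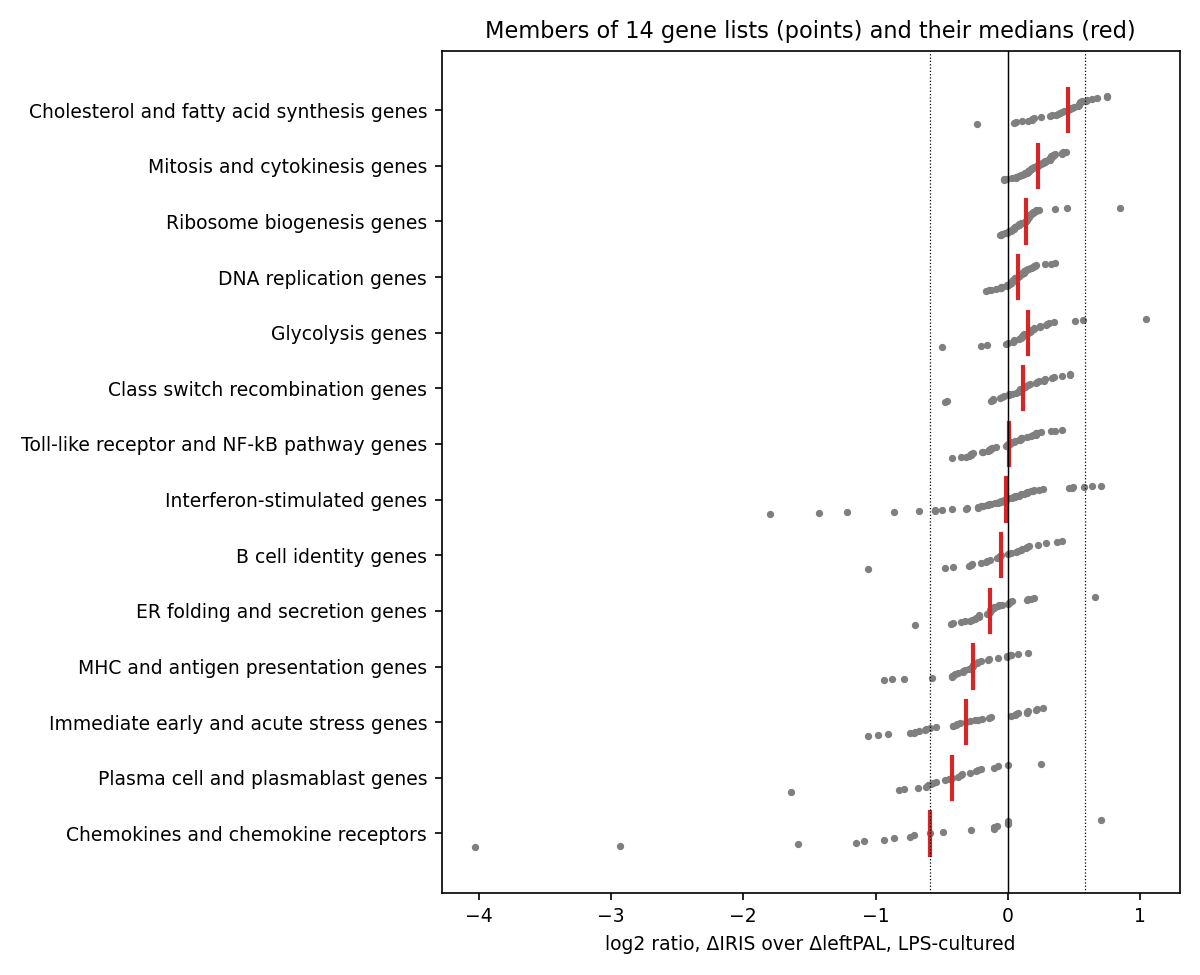
Each point is 1 measured gene, placed by its log2 ratio of ΔIRIS over ΔleftPAL in LPS-cultured cells (horizontal), in 14 gene lists (vertical). Red bars are medians and dotted lines mark 1.5-fold. The medians run from 0.45 for cholesterol and fatty acid synthesis to -0.59 for chemokines.

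Genes of cell division were slightly and broadly higher in ΔIRIS. Of 52 mitosis and cytokinesis genes, 49 had a ratio above 0 (54.9% of all genes), and the median was 0.22 (0.17 at rest). None was at least 1.5-fold higher (1.96% of all genes) or lower (4.5%). Top2a, the topoisomerase that separates replicated DNA, stood at 1037 CPM in ΔleftPAL and 1298 CPM in ΔIRIS (0.32), the spindle motor Kif11 at 256 and 341 CPM (0.41), and Mki67 at 1533 and 1629 CPM (0.09). The 45 DNA replication genes had a median of 0.08 and 34 were above 0, with Pcna at 492 and 520 CPM and the helicase subunit Mcm5 at 442 and 440 CPM. Of 43 ribosome biogenesis, nucleotide and MYC-linked genes, 38 were above 0 with a median of 0.14. Among them, 1 was at least 1.5-fold higher (1.96% of all genes), the nucleolar gene Ncl (13892 and 27194 reads, 0.85, and 0.76 at rest). Myc itself stood at 41.8 and 41.7 CPM. The 29 glycolysis and hypoxia-linked genes had a median of 0.15, with Gapdh at 1179 and 1324 CPM and Ankrd37 at 95 and 229 reads (1.05). The 56 nuclear-encoded oxidative phosphorylation genes had a median of 0.03.

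Genes through which LPS is sensed had a median close to that of all genes (0.026). None of 42 Toll-like receptor and NF-κB pathway genes was at least 1.5-fold higher in ΔIRIS (1.96% of all genes) or lower (4.5%). Their median was 0.01, and 21 of the 42 had a ratio above 0 (54.9% of all genes). Tlr4 stood at 456 and 580 reads, Cd180, the gene of RP105, at 1239 and 1445, and Nfkb1 at 268 and 273 CPM. Of 33 class switch recombination genes, none was at least 1.5-fold higher (1.96% of all genes) or lower (4.5%). The median was 0.11, and 25 of the 33 were above 0 (54.9% of all genes). Ung, which removes uracil from DNA, stood at 26.5 and 26.0 CPM, and Rif1, which protects broken DNA ends, at 182 and 252 CPM (0.47). Apobec3, a restriction factor of retroviruses, was not in the list, and had 2007 and 4926 reads with LPS (1.17) and 4403 and 4659 at rest. Its ratio was 0.63 in the estimated counts.

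The list of immediate early genes, which respond within minutes to receptor signals, and of acute stress genes had a median of -0.32 with LPS. Of 33 measured members, 10 were at least 1.5-fold lower in ΔIRIS (4.5% of all genes) and 0 higher (1.96%), while 10 had a ratio above 0 (54.9%). At rest 31 of 33 were above 0 and the median was 0.44. Fos had 6345 reads in resting and 358 in LPS-cultured ΔleftPAL cells, and 10201 and 180 in ΔIRIS cells. Both LPS libraries were thus far below both resting ones, and ΔIRIS was highest at rest and lowest with LPS (-1.05). Egr1 had 1013 and 666 reads in ΔleftPAL and 2586 and 379 in ΔIRIS. Dusp4, a phosphatase of MAP kinases, had 520 and 1143 reads in ΔleftPAL and 2232 and 806 in ΔIRIS, and Cdkn1a, the gene of the cell cycle inhibitor p21, had 10 and 294 and then 99 and 190. The heat shock gene Hspa8, the most abundant member, was at 1915 and 2214 CPM, and the oxidative stress gene Txnrd1 at 132 and 139 CPM.

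**Figure D4:**
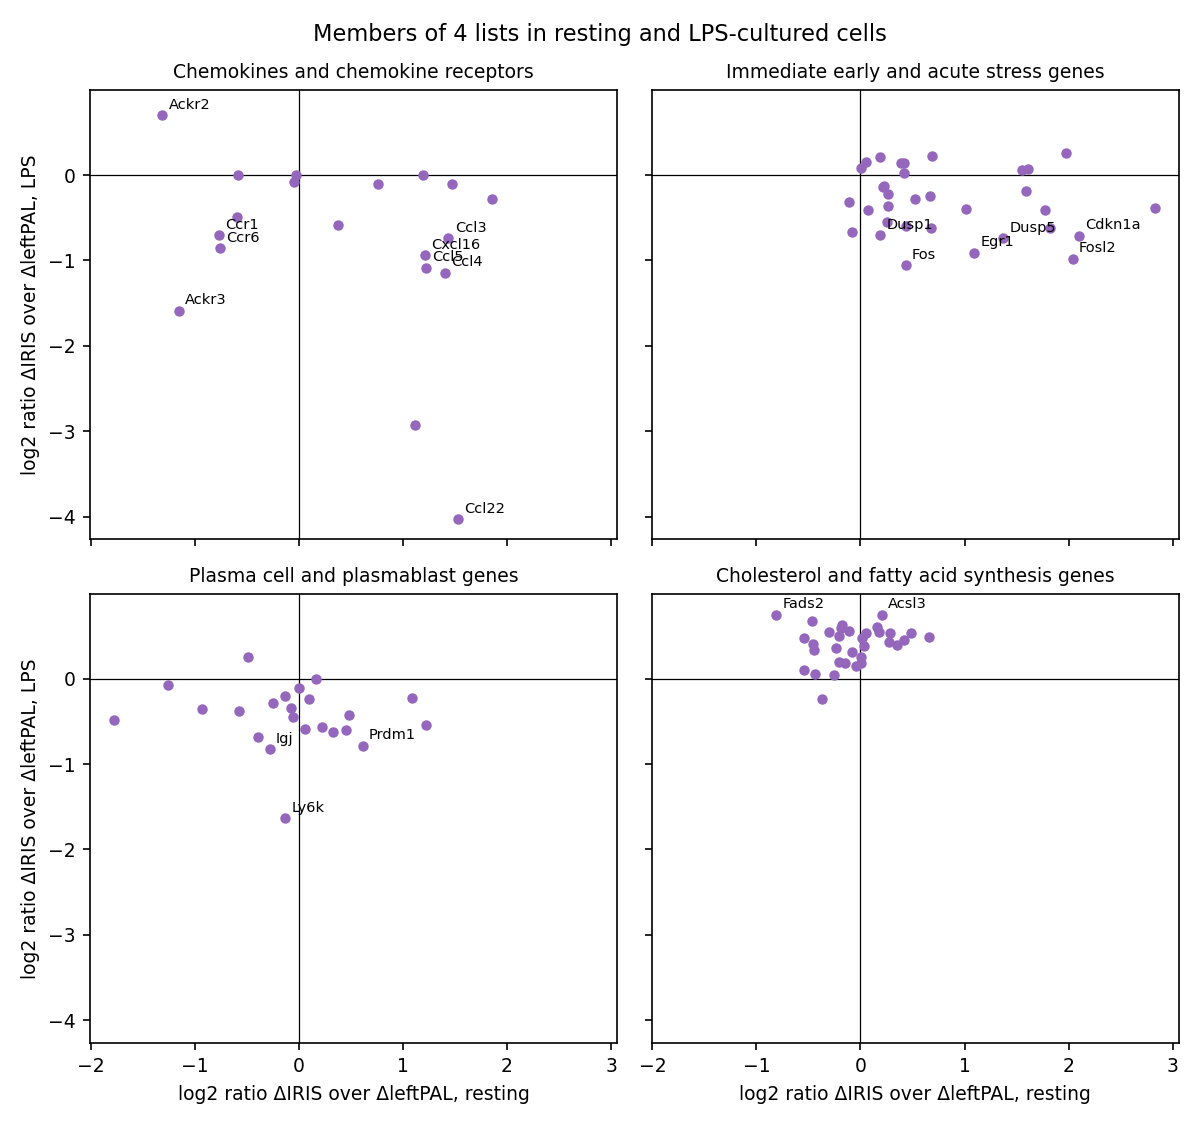
Each point is 1 measured member of the list above the panel, placed by its log2 ratio of ΔIRIS over ΔleftPAL in resting cells (horizontal) and in LPS-cultured cells (vertical). Chemokine and immediate early genes lie mainly right of and below 0, plasma cell genes below 0 with resting ratios on both sides, and cholesterol genes above 0 with resting ratios on both sides.

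Antigen presentation genes were modestly lower in ΔIRIS. Of 30 measured, 26 were below 0 (54.9% of all genes were above 0) with a median of -0.27, and 3 were at least 1.5-fold lower (4.5% of all genes), the class Ib genes H2-Q6 (3480 and 1972 reads, -0.94), H2-Q7 (-0.87) and H2-T24 (-0.78). The near-identical H2-Q genes may share reads. At rest 3 of the 30 were above 0 (median -0.31). Among class II genes, Cd74, the invariant chain, stood at 1743 and 1426 CPM and H2-Ab1 at 522 and 390 CPM. The 27 costimulatory and activation molecules had a median of -0.18, and 3 were at least 1.5-fold lower (4.5% of all genes), namely Lag3 (112 and 37 reads), Icosl (512 and 292) and Pdcd1lg2 (-0.81).

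The 52 interferon-stimulated genes, which as a list were lower in ΔIRIS at rest (median -0.91), had a median of -0.01 with LPS. Of them, 5 were at least 1.5-fold lower (4.5% of all genes) and 2 at least 1.5-fold higher (1.96%). Ifit3 had 1782 reads in resting and 322 in LPS-cultured ΔleftPAL cells, and 456 and 121 in ΔIRIS cells (-1.43 with LPS). Ifi204 (123 and 28 reads, -1.80) and Xaf1 (554 and 251 reads, -1.22) were lower too, as were Irf7 (-0.86) and Oasl1 (-0.67). The RNA-sensing synthetase gene Oas1g was higher with LPS (46 and 91 reads) and lower at rest (313 and 120 reads).

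Of 27 B cell identity genes, 1 was at least 1.5-fold lower in ΔIRIS (4.5% of all genes) and 0 were at least 1.5-fold higher (1.96%). Cr2, the gene of the complement receptor CD21, which is highest on marginal zone B cells, had 19499 reads in resting and 4834 in LPS-cultured ΔleftPAL cells, and 14966 and 2515 in ΔIRIS cells (-1.06 with LPS, -0.63 at rest). Of the 20 marginal zone, follicular, B1 and maturation markers measured, 2 were at least 1.5-fold lower (4.5% of all genes), Asb2 (46 and 5 reads) and Icosl, and the median was 0.01. Among the 15 germinal centre genes, the median of which was 0.00, Basp1 was at least 1.5-fold lower (168 and 83 reads, 4.5% of all genes). Plxnb2 (0.82) and Rgs13 (0.70, and -1.01 at rest) were at least 1.5-fold higher (1.96% of all genes). The cytokine and TNF family list (34 genes, median -0.08) held 3 genes at least 1.5-fold lower (4.5% of all genes) and 0 at least 1.5-fold higher (1.96%). Il9r, the interleukin-9 receptor, was the only member at least 2-fold lower (1.41% of all genes). It had 473 and 165 reads with LPS (-1.56) and 1743 and 972 at rest. Il10, a cytokine of regulatory B cells, was at 595 and 614 reads with LPS.

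The protein-coding genes furthest above in ΔIRIS included neighbours on chromosome 7. Trim12a (GRCm38 chr7:104299894-104315466) had 539 reads in resting and 77 in LPS-cultured ΔleftPAL cells, and 1126 and 479 in ΔIRIS cells, with a ratio of 2.33 (interval 2.17 to 2.88). Trim30d (chr7:104470014-104507849) had 534 and 137 reads in ΔleftPAL and 692 and 692 in ΔIRIS (2.11), and Trim5 had 290 and 64 reads and then 522 and 329 (2.03). These genes belong to the tripartite motif family of antiviral and interferon-linked E3 ligases. All 3 were lower with LPS than at rest in ΔleftPAL cells, by more than in ΔIRIS cells. Trim34a, which spans part of this stretch on the other strand, was at 349 and 791 reads (1.03). Of the 10 measured Trim genes of the cluster, the other 6 lay between -0.32 and 0.72, among them the abundant Trim30a (3308 and 4061 reads, 0.17) and Trim12c (1276 and 1472 reads, 0.08). Gm1966, a pseudogene further along the chromosome (chr7:106596743-106604035), had 538 and 3227 reads with LPS (2.43) and 4191 and 5689 at rest. Members of this family are similar in sequence, and the share of their reads that could belong to another member was not tested.

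Further genes higher in ΔIRIS LPS cells were Map7, a microtubule-binding protein (45 and 222 reads, 259 and 251 at rest), Itgam, the CD11b chain of an integrin of myeloid and B1 cells (140 and 450 reads, 321 and 304 at rest), and Igf2bp3, an RNA-binding protein of fetal B cell development (158 and 442 reads, 88 and 223 at rest). Nxpe2 (115 and 345 reads), Lrrc25 (59 and 182), Gm8923 (85 and 229), BC147527 (20 and 87), Phactr2 (21 and 85), Diras2 (32 and 96) and Gm15448 (6 and 34) stood in the same direction. Pira2 (24 and 81 reads) and Pirb (118 and 283 reads), paired immunoglobulin-like receptors of myeloid and B cells, were both higher, while the other markers of neutrophils, mast cells and basophils were nearly absent (14 of the 18 markers had 0 reads in ΔleftPAL LPS and 15 in ΔIRIS LPS cells). Haemoglobin genes were higher as well. Hbb-bs had 804 and 1841 reads with LPS (1.06) and Hba-a1 545 and 1241 (1.05), with Hba-a2 and Hbb-bt at 1.13 and 1.01, where the resting libraries held 479384 and 411542 reads of Hbb-bs. The 4 haemoglobin genes summed to 57.5 CPM in ΔleftPAL LPS and 122 CPM in ΔIRIS LPS cells. The 16 erythroid and megakaryocyte markers found summed to 392 and 568 CPM, of which Tfrc, the transferrin receptor gene that dividing B cells also express, made up 332 and 444 CPM. Of 13 measured, 5 had a ratio below 0, among them Itga2b (33 and 10 reads).

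**Figure D5:**
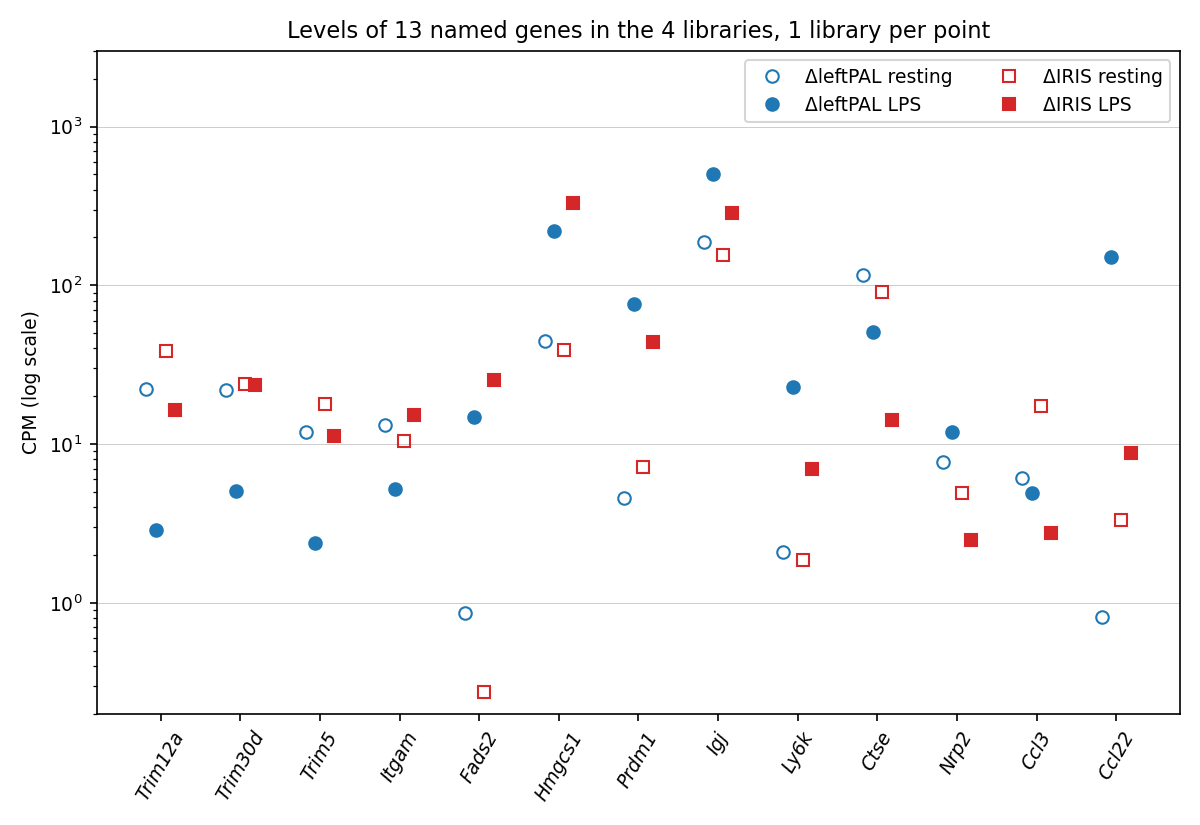
Each point is the level of a gene in 1 library in CPM (vertical, log scale), circles for ΔleftPAL and squares for ΔIRIS, open for resting and filled for LPS-cultured cells. Trim12a, Trim30d and Trim5 have the ΔleftPAL LPS library as their lowest, and Ccl22, Ly6k and Nrp2 have it as their highest.

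Among the protein-coding genes lower in ΔIRIS LPS cells, besides Ccl22, was Ctse, the aspartic protease cathepsin E of the endosomal pathway. It had 2852 reads in resting and 1376 in LPS-cultured ΔleftPAL cells, and 2630 and 415 in ΔIRIS cells, a ratio of -1.82 (interval -2.01 to -1.69). Nrp2, a receptor of semaphorins and VEGF, had 187 and 321 reads in ΔleftPAL and 142 and 73 in ΔIRIS. Atp9a, a phospholipid flippase, had 20 and 293 reads and then 38 and 66. The sialyltransferase gene St6galnac2 had 243 and 33 reads with LPS (112 and 107 at rest), and Gdpd3, a phospholipase of the glycerophosphodiester family, had 312 and 74 (578 and 554 at rest). The remaining ones were Pydc3 (134 and 13 reads), Gpr34 (79 and 13), 4931429I11Rik (130 and 25) and Gm21887 (350 and 96). Gm8730 (8891 and 546 reads) and Gm10020 (766 and 42) are annotated as protein-coding and were low in both resting libraries (107 and 261 reads, and 7 and 19).

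Pseudogene and repeat-like genes held the lowest ratios of all genes measured. The highest belonged to Gm20730, typed as a light-chain variable segment and named after its value was seen, with 0 reads in ΔleftPAL LPS and 659 in ΔIRIS LPS cells (86 and 219 at rest), at least 202-fold higher against a floor of 3 counts. The pseudogenes Gm13841 (3825 and 35 reads), Rps3a3 (7287 and 96), Rpl34-ps1 (2889 and 63) and Gm8210 (474 and 3) were high in the ΔleftPAL LPS library alone, with between 1 and 66 reads in every resting library. Gm11942 had 2444 and 25 reads in the gene counts (-6.08), but its ratio in the estimated counts was -0.46. The parent genes Rps3a1 (33981 and 47451 reads, 0.36) and Rpl34 (10462 and 15199 reads, 0.42) stood the other way. Of 81 cytosolic ribosomal protein genes, 63 had a ratio below 0 (54.9% of all genes were above 0). Their median was -0.09, but 0.003 in the estimated counts. Reads of a processed copy and of its parent can be exchanged by a mapper. In the other direction stood AY036118 (11173 and 111536 reads), Gm24105 (57 and 280), Gpr137b-ps (29 and 135) and Hmgb1-ps8 (8 and 61). Gm10800 and Gm21738 were lower in ΔIRIS LPS cells (4695 and 1280 reads, and 359 and 103), but were higher in ΔIRIS at rest (248 and 3244 reads, and 23 and 248).

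The lists not yet described differed little. The medians were 0.10 for 17 mitochondrial genome genes, 0.15 for 16 Snhg host genes and nuclear long noncoding RNAs (Malat1 at -0.63 and Neat1 at -0.59 were lower), 0.07 for 32 amino acid supply genes, -0.20 for 15 BCL2 family genes, -0.09 for 23 quiescence and homing genes (Klf2 at 0.72 was higher) and -0.07 for 35 B cell and plasma cell transcription factors. Of 63 replication-dependent histone genes, 4 were at least 1.5-fold higher (1.96% of all genes) and 4 lower (4.5%), with a median of -0.11 that became 0.14 in the estimated counts. The 2 histone genes at least 2-fold lower (1.41% of all genes) were Hist1h4i (3139 and 1327 reads, -1.35) and Hist2h3c2 (431 and 183 reads, -1.29, but -0.03 in the estimated counts). Few T cell markers (5, median -0.07), NK cell markers (4, median -0.22) and stromal markers (2, median 0.03) were measured, and their sums over all listed genes were 51.1 and 49.1, 6.09 and 3.99, and 81.5 and 74.3 CPM in ΔleftPAL and ΔIRIS LPS cells.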

How the data were processed

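RNA of CD43-depleted splenic B cells was measured in 4 libraries, 1 per genotype and condition. The labels give a pool of cells from 4 animals per genotype, whereas the study's methods describe 2 pooled RNAs per genotype, each of 2 samples. The tables hold 1 library per group, and which pool it stands for is not given in the sources used here, so no test was possible. The wt libraries were not analysed here. Per the submitters' processing notes the tools included STAR 2.4.0a, featureCounts of Subread 1.4.6-p1 and kallisto 0.42.3, with mm10. The authors deposited fragment counts per gene without normalization. They also deposited kallisto estimated counts of 88198 transcripts, and kallisto TPM, which are scaled within each library. The annotation columns of the TPM table are shifted against their names, so transcripts were matched by identifier. A gene row without a name (0.0092% of the counts in ΔleftPAL LPS and 0.0088% in ΔIRIS LPS) was left out of library sizes, and 0 columns lacked a sample.

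Gene counts were scaled to CPM with TMM factors from edgeR 4.0.16 (R 4.3.3), and log2 ratios used CPM plus 0.5 for the 11286 genes averaging 50 counts or more. The prior understates the change of low genes. Clopper-Pearson intervals were computed with scipy 1.17.1 in Python 3.11.15. Estimated counts and TPM were summed per gene. Gene types came from the transcript table and GENCODE M21, which also gave positions, and promoters came from RefSeq. The ratio and its interval were tested on simulated data. Alternatives tried were size factors of DESeq2 1.42.0, library totals without factors, TMM without immunoglobulin genes, both kallisto units, a prior of 5 CPM, other minimum counts, other fold thresholds and the omission of immunoglobulin genes or pseudogenes.

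The comparison, its genes and its 34 lists were chosen with earlier results of these data known. The genes named by rule were the 15 protein-coding genes per direction with the largest ratio that were 2-fold apart in both tables, list members 2-fold apart and up to 6 abundant members per list, 5 pseudogene or noncoding genes per direction, and Ighm, Prdm1, Mki67 and Gapdh, and the results of some of these genes are not reported here. Other genes were named after their values were seen.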

Additional observations from a re-analysis of the deposited data

Results flagged for a closer look

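The results below were singled out because the difference between the genotypes pointed one way in resting cells and the other way in LPS-cultured cells. It was at least 2-fold in both for a gene, and at least 0.3 in both medians for a list. Genes were taken only from list members and the genes named for the size of their ratio, without immunoglobulin genes. Other measured genes that met the rule are not listed. Each value is the log2 ratio of ΔIRIS over ΔleftPAL with LPS minus that at rest. The difference was not tested, since each ratio rests on 1 library per group. Among chemokine genes the value was -5.55 for Ccl22, -2.55 for Ccl4 and -2.30 for Ccl5, and -1.35 between the medians of the chemokine list. It was -3.02 for Fscn1 and -0.932 between the medians of the dendritic cell marker list, which holds both Fscn1 and Ccl22. The medians of the immediate early list differed by -0.751. The megakaryocyte integrin gene Itga2b, with 33 and 10 reads with LPS, gave -2.18. The repeat-like genes Gm10800 and Gm21738 gave -5.38 and -4.43, and the pseudogene Hmgb1-ps8, with 8 and 61 reads with LPS, gave 2.76.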

How the results depend on the processing

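No paired analysis was possible because each group is 1 library and the labels give no replicate numbers. For the same reason no library could be left out. The numbers of genes at least 2-fold higher and lower in ΔIRIS LPS cells, 64 and 159, stayed within 1.5 times under total counts, DESeq2 size factors, TMM without immunoglobulin genes, kallisto estimated counts, lower or no minimum counts and without immunoglobulin genes or pseudogenes. They became 13 and 70 with a prior of 5 CPM, 37 and 91 with a minimum mean of 200 counts, 221 and 508 at 1.5-fold, and 7 and 29 at 4-fold. With kallisto TPM the higher genes numbered 39, and those also past 2-fold in the estimated counts, an alternative chosen after seeing the data, numbered 34. The larger prior lowers every ratio of low genes by construction. For the TPM the cause was not tested. The medians of the cholesterol, chemokine and plasma cell lists kept their sign under every scaling, prior and minimum tried, and ranged from 0.35 to 0.48, from -0.64 to -0.22 and from -0.48 to -0.33. Of the 40 genes named for the size of their ratio, 0 changed sign under any scaling or prior that gave a value, 5 of them being absent from the kallisto tables or below the minimum of 50 counts there. Of the 933 measured list members, 36 changed sign under total counts, 33 under DESeq2 size factors and 20 under TMM without immunoglobulin genes, all with ratios within 0.0203 of 0. In the estimated counts 110 of 912 did, with ratios of up to 0.52 from 0. The medians of the mitosis and the immediate early lists also kept their sign, at 0.16 to 0.29 and -0.32 to -0.20. The medians nearest 0 did not all keep theirs, among them DNA replication (-0.0023 to 0.12), B cell identity (-0.13 to 0.04), histones (-0.11 to 0.14), interferon-stimulated (-0.05 to 0.04) and Toll-like receptor genes (-0.09 to 0.08). The median of the cytosolic ribosomal protein genes ran from -0.12 to 0.003. Ratios of genes with few reads are limited by depth, and the difference between mice or cultures of 1 genotype could not be measured.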
